A study of Mus musculus with 14 samples.

Results

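The regions described are stretches of the mouse genome (build mm9) where the FLAG epitope was called as a peak in every WT-Tag neurosphere culture and in no K27M-Tag culture. Peaks on chromosomes 1 to 19 from the 6 deposited FLAG lists were merged wherever they shared at least 1 bp. A merged region was kept when all 3 WT-Tag lists had a peak in it and none of the 3 K27M-Tag lists did. This left 684 of 116516 merged FLAG regions, or 0.587%, and the regions are called WT-Tag-only below. They made up 4.61% of the 14831 regions with a peak in all 3 WT-Tag lists.

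All cultures were hindbrain neurospheres from mouse embryos of stage e15.5, labelled as neural stem cells. The K27M-Tag cultures carried Nestin-cre with H3f3aLSL-K27M-Tag/+, and the WT-Tag cultures carried Nestin-cre with H3f3aLSL-WT-Tag/+, with 3 cultures of each genotype. Both genotypes therefore carry the Cre driver and a tagged H3f3a allele beside an unmodified one. All cultures were labelled female except WT-Tag replicate 3, which was male. Each culture gave 1 FLAG and 1 H3K4me3 library, and no untagged control was used here. Nothing in the labels says whether the cultures came from separate litters, so tests below measure the spread between these cultures.

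H3f3a encodes H3.3, a histone H3 variant that is deposited outside DNA replication, for example at active promoters, enhancers and transcribed genes. The K27M substitution replaces the lysine that the Polycomb complex PRC2 methylates, and it is known from diffuse midline gliomas of children. A FLAG tag on the endogenous allele lets an antibody to the tag pull down the tagged histone, mutant or wild type. H3K4me3, trimethylation of lysine 4 on histone H3, marks mainly the promoters of active and poised genes. Nestin-cre is active in neural progenitors, where removal of a LoxP-stop-LoxP (LSL) cassette lets the tagged allele be expressed.

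The autosomal FLAG lists held 77229, 57061 and 87258 peaks in K27M-Tag replicates 1, 2 and 3. The lists of WT-Tag replicates 1, 2 and 3 were shorter, at 32466, 46880 and 46395. The mirror-image pattern, a peak in each K27M-Tag list and none from WT-Tag, was found at 11527 regions (9.89% of all), and 11907 regions had a peak in all 6 lists. The count of WT-Tag-only regions depends on each list, since any 1 peak can add or remove a region. It was 1012, 786 and 1157 without K27M-Tag replicate 1, 2 or 3, and 2497, 1377 and 1258 without WT-Tag replicate 1, 2 or 3. Cutting every list to its 32466 highest-scoring peaks gave 1693 such regions, which held 397 of the 684 (58.0%). Joining peaks across gaps of up to 1000 bp gave 514, which held 372 of the 684 (54.4%). Over the 4 alternatives that changed the peaks or overlaps used and kept all libraries, 221 of the 684 were found every time (32.3%). When regions of high local background, defined below, were left out as well, 188 remained (27.5%). 1 of the 4 counted a peak where it shared 50% of the shorter interval. It could not change the set, since every peak lies wholly within its merged region.

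Regions just outside the rule were more numerous than the members. Another 867 regions had a peak in all 3 WT-Tag lists and in 1 K27M-Tag list. The single K27M-Tag peak came from replicate 3 in 452 of these, from replicate 1 in 319 and from replicate 2 in 96, the order of the lengths of those lists. Its deposited −log10 q had a median of 5.42 and ran from 2.16 to 18.3, and only 33 of the 867 peaks were under 3. On the WT-Tag side, 2969 regions lacked K27M-Tag peaks but had peaks in only 2 WT-Tag lists, and the missing list was replicate 1, the shortest, in 1787 of them.

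WT-Tag-only regions were found on all 19 autosomes. Their number ran from 18 on chromosome 13 to 66 on chromosome 11, and chromosome 2 held 52. Chromosome 11 also had the most FLAG regions of any kind, 9888. As a share of a chromosome's own FLAG regions, the lowest value was 0.401% on chromosome 13 (95% exact binomial interval 0.238 to 0.634) and the highest was 0.788% on chromosome 17 (0.564 to 1.07), where 40 regions lay. Chromosomes 9 and 5 followed with 50 regions each, at 0.746% and 0.745%. The interval of every chromosome included the autosomal share of 0.587%, and these intervals cover counting error only. Against regions in all 3 WT-Tag lists, the share ran from 3.70% on chromosome 13 to 5.995% on chromosome 5.

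**Figure D1:**
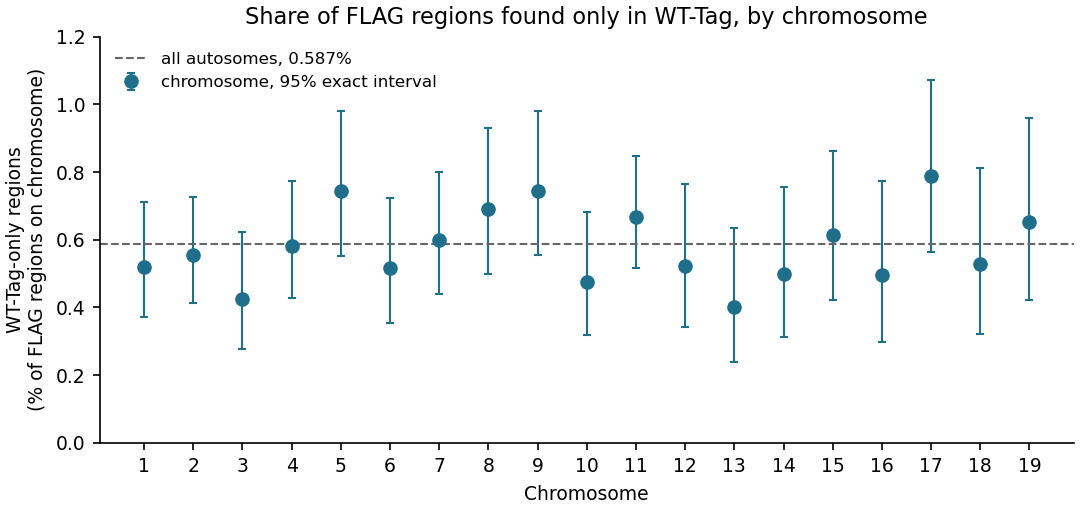
Share of each chromosome's merged FLAG regions that were WT-Tag-only, in percent; points are chromosomes, bars are 95% exact binomial intervals and the dashed line is the share over all autosomes. The shares run from 0.401% on chromosome 13 to 0.788% on chromosome 17, and every interval spans the dashed line at 0.587%.

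The regions were short. Their median length was 500.5 bp, from 211 to 1919 bp, and only 34 were longer than 1000 bp, so that together they covered 383 kb. The bases covered by FLAG peaks in a region had medians of 257, 341.5 and 352 bp in WT-Tag replicates 1, 2 and 3 (317 ± 52.1, SD, n = 3). The median peak of the same lists was 265, 309 and 304 bp wide (293 ± 24.1, SD, n = 3). The median of the regions was thus below that of the list in replicate 1 and above it in replicates 2 and 3. Covered bases add up all peaks of a region, and 39, 37 and 45 regions held several peaks in replicates 1, 2 and 3. Regions in all 6 lists were wider in the WT-Tag lists, with a median of 617 ± 130 bp (SD, n = 3). Regions with 1 K27M-Tag peak were close to the WT-Tag-only ones, at 336 ± 60.7 bp. In WT-Tag replicate 1, 40 of the 684 were at the shortest width the list contains, and this held for 36 and 18 in replicates 2 and 3. These widths helped to choose the regions, since a wide region meets more peaks, and they are given as a description.

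The deposited score ranks peaks within a list, and each region was placed by the percentile of its best peak, that is the share of the list's peaks with a lower score. The regions sat in the middle of the WT-Tag lists, with median percentiles of 41.2, 49.9 and 55.9 (49.0 ± 7.39, SD, n = 3). Regions in all 6 lists had a median of 76.2 ± 5.90 in the same lists, and regions with 1 K27M-Tag peak had 50.6 ± 8.24. Few WT-Tag-only regions were among the best peaks. At or above the percentile 90 lay 29, 31 and 45 of the 684 in replicates 1, 2 and 3.

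The same region ranked differently from culture to culture. Spearman's rho of the percentile over the 684 regions was 0.176 between replicates 1 and 2, 0.168 between 1 and 3 and 0.187 between 2 and 3. Over the 11907 regions in all 6 lists it was 0.456, 0.455 and 0.533, and over the 867 regions with 1 K27M-Tag peak it was 0.163, 0.112 and 0.182. These correlations are across regions that share libraries and background, and they describe how alike the lists are. When each region was given its lowest percentile of the 3 lists, the median was 23.9. It was 50 or more in 106 regions (15.497%), 75 or more in 18 and under 10 in 172 (25.1%). The lowest −log10 q of a region had a median of 4.42, was under 3 in 54 regions (7.89%) and was 5 or more in all 3 lists in 192 (28.1%).

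**Figure D2:**
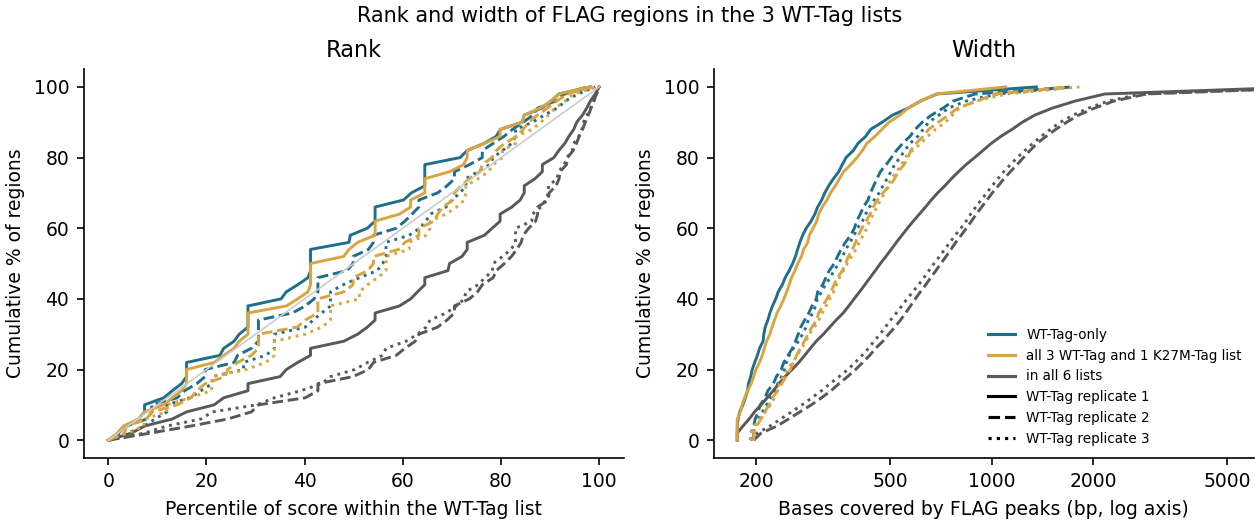
Cumulative share of regions (percent) against the within-list percentile of the score (left) and against bases covered by FLAG peaks in bp on a log axis (right), for WT-Tag-only regions, regions in all 3 WT-Tag and 1 K27M-Tag list, and regions in all 6 lists; line styles are the 3 WT-Tag cultures and the thin grey diagonal on the left is the whole list. WT-Tag-only regions follow the diagonal with medians of 41.2, 49.9 and 55.9, and their curves lie beside those of the regions with 1 K27M-Tag peak and away from those of the regions in all 6 lists.

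The deposited fold enrichment matched the ratio of the summit pileup plus 1 to the caller's local background plus 1. Its medians over the regions were 4.26, 4.26 and 4.39 in WT-Tag replicates 1, 2 and 3 (4.30 ± 0.0760, SD, n = 3). The whole lists had medians of 4.28, 4.13 and 4.16 (4.19 ± 0.0801). Over single regions the fold ran from 2.45 to 8.03. The regions were thus ordinary peaks of their lists by fold as well as by rank.

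The fold and p of each peak also let the pileup and the local background be recovered. Medians of the summit pileup were 18, 20 and 20 fragments, beside 19, 20 and 20 in the whole lists. The most common background was 3.09, 3.45 and 3.33 fragments per base in the WT-Tag lists and 3.16, 3.34 and 3.60 in the K27M-Tag lists, so the backgrounds of the genotypes overlapped. At that background the lowest pileup called as a peak was 11, 13 and 12 fragments in K27M-Tag replicates 1, 2 and 3, at most 3.89 times the background. The WT-Tag lists' own lowest multiples were 3.88, 3.48 and 3.60, so a region called in all 3 has to come close to the K27M-Tag limits or pass them, and nothing is read from the fact that all 684 did pass. At least 2 times the multiple of 3.89 was reached in all 3 WT-Tag lists by 4 regions. A local background over 1.5 times that of the list was found at 54, 44 and 89 of the regions (9.11 ± 3.45% of the 684, SD, n = 3), beside 16.3 ± 3.68% of all peaks in the same 3 lists. Leaving out the 136 regions with such a background in any WT-Tag list left 548.

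2 regions on chromosome 9 stood apart from the other regions by pileup. At chr9:100999589-101000210 the summit pileup was 62, 66 and 58 fragments over local backgrounds of 20.6, 23.4 and 19.5. At chr9:13338651-13339377 it was 57, 52 and 57 over 13.2, 15.4 and 17.3. Both had a raised background in every WT-Tag culture, and their folds were low, from 2.74 to 2.92 at the first and from 3.17 to 4.08 at the second. Their high ranks, never below the percentile 82.5, came with a dense pileup and not with a high fold. The part of the raised background in these calls was not tested. The other 2 of the 4 regions at 2 times the multiple, named after their values were seen, were chr1:88357298-88357943, with pileups of 28, 27 and 28, and chr11:113133099-113133750, with 30, 28 and 30.

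**Figure D3:**
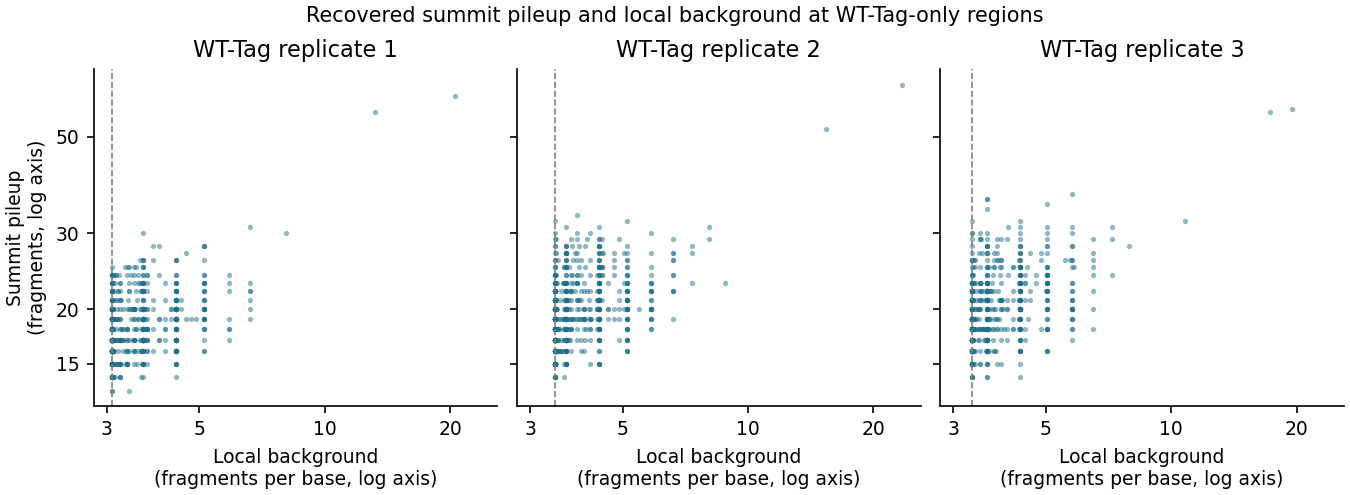
Summit pileup (fragments, log axis) against local background (fragments per base, log axis) for the WT-Tag-only regions in each WT-Tag culture, both recovered from the deposited fold and p; points are regions and dashed lines mark each list's most common background of 3.09, 3.45 and 3.33. A pair of regions on chromosome 9 stands apart at the top right of all 3 panels, with pileups from 52 to 66, and the median pileups are 18, 20 and 20.

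By lowest percentile, the region that led the 684 was chr11:67332156-67332894, at percentiles 91.8, 96.3 and 96.8 in WT-Tag replicates 1, 2 and 3. Its peaks covered 566, 684 and 739 bp with pileups of 24, 31 and 30 over backgrounds of 3.09, 3.66 and 3.33. It lay 5044 bp from the nearest FLAG peak of any K27M-Tag list and 51812 bp from the nearest H3K4me3 peak of any list. The next region, chr11:97818318-97818856, was at percentiles 91.2, 91.2 and 93.1 with folds of 5.946, 6.005 and 6.291. A K27M-Tag FLAG peak lay 1218 bp from it. The region chr4:130299531-130300325 was at percentiles 90.2, 97.2 and 95.6, and a K27M-Tag FLAG peak lay 263 bp from it. These were the only regions at or above the percentile 90 in all 3 lists.

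Of the 12 regions with the highest lowest percentile, 4 were on chromosome 11. The other 2 there were chr11:113133099-113133750 and chr11:104196239-104196895, whose nearest K27M-Tag FLAG peaks were 4359 and 608 bp away. The region chr6:51439756-51440190 was at percentiles 93.8, 89.8 and 91.7 and was 3793 bp from a K27M-Tag FLAG peak. The most even in width of these was chr15:75729961-75731099, with 986, 1020 and 973 bp covered (993 ± 24.3, SD, n = 3). All 12 were found again with every list cut to the same size. Such a cut removes only the lowest-scoring peaks, so it could not drop regions of this rank. When peaks were joined across 1000 bp, 8 of the 12 were found again.

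The widest region by mean covered bases was chr4:125993310-125994979, with 1358, 1670 and 1323 bp (1450 ± 191, SD, n = 3). It was followed by chr7:20279278-20281076, with 1185, 991 and 1714 bp (1297 ± 374). At chr8:108413575-108415493 the cultures differed, with 622 bp in replicate 1 against 1741 and 1423 bp (1262 ± 577), and its percentile was 3.08 in replicate 1 against 84.5 and 86.4. The other 2 of the 5 widest were chr5:140763987-140765552 (1173, 918 and 1566 bp) and chr11:50018516-50020230 (788, 951 and 1321 bp). None of these 5 overlapped an H3K4me3 peak, though chr7:20279278-20281076 lay 160 bp from one.

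The lowest-ranked region, chr16:91662311-91662955, was weak in replicates 1 and 3 and low in replicate 2, with percentiles of 0, 19.7 and 0.626 and −log10 q of 2.00, 4.25 and 2.49. The other 2 named for a low −log10 q had 1 weak peak each. At chr5:23708259-23708753 the percentiles were 0.140, 70.5 and 78.4, and at chr9:110061549-110061873 they were 69.5, 93.5 and 0.199. The lists thus disagreed most at the last, where replicates 1 and 2 ranked the region high and replicate 3 placed it near the end of its list. In all, 7 regions had a percentile under 10 in one culture and over 90 in another.

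Most WT-Tag-only regions had a K27M-Tag FLAG peak nearby. Distances run from edge to edge, with 0 for an overlap and 1 bp for peaks that touch. The nearest K27M-Tag FLAG peak was a median of 1468.5 bp away. It was within 200 bp of 89 regions (13.01%), within 1000 bp of 285 (41.7%) and more than 5000 bp from 203 (29.7%). In 2 regions the K27M-Tag peak touched the edge. Only 14 (2.05%) were more than 50000 bp from any K27M-Tag FLAG peak. Such distances are not given here for other FLAG regions, so nearness is not read as a trait of the WT-Tag-only ones.

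Other FLAG peaks lay around the regions in the lists of both genotypes. Within 10 kb, a region had a mean of 2.76 ± 0.647 other FLAG peaks in the K27M-Tag lists and 3.17 ± 0.591 in the WT-Tag lists (SD, n = 3 each). Within 50 kb the means were 11.8 ± 2.33 and 10.5 ± 1.77. Both differences were smaller than the spread between the cultures. The K27M-Tag lists were the longer ones, so like counts are not like shares of a list. Around regions in all 6 lists, the K27M-Tag lists had 3.88 ± 0.688 peaks within 10 kb and the WT-Tag lists 2.56 ± 0.362. The WT-Tag-only regions thus mostly lay in surroundings where the K27M-Tag lists also had peaks.

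The exception with the widest K27M-Tag gap was chr17:55035298-55036125, 981059 bp from the nearest K27M-Tag FLAG peak. Its percentiles were 15.9, 76.2 and 40.1 and its peaks covered 258, 533 and 698 bp. H3K4me3 overlapped it in WT-Tag replicates 2 and 3, with folds of 5.90 and 4.48, and the nearest H3K4me3 peak of the other 4 lists was 548438 bp away or farther. The next were chr12:67137309-67137581, 433691 bp away, and chr8:4679000-4679587, 166669 bp away. These were picked after their values were seen.

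Most WT-Tag-only regions had no other within 100 kb, and some formed runs. The nearest other member was a median of 346 kb away, and 221 of the 684 (32.3%, exact binomial interval 28.8 to 36.0) lay within 100 kb of another. That interval treats the regions as independent, but neighbours count together, so it is likely too narrow. Within 10 kb there were 79 (11.5%), and the closest pair was 57 bp apart. The 867 regions with 1 K27M-Tag peak, a set of similar size, had 33.0% within 100 kb and 13.7% within 10 kb. Of the regions in all 6 lists, a far larger set, 86.0% had another within 100 kb. The part of set size in that share was not tested. For WT-Tag-only regions the share within 100 kb moved with the definition. It was 59.3% of 2497 regions without WT-Tag replicate 1 and 19.6% of 514 regions when peaks were joined across 1000 bp.

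Chaining regions with gaps of at most 100 kb gave 70 pairs, 18 runs of 3, 4 runs of 4, 1 run of 5 and 1 run of 6. The longest run in number, chr15:81658925-81781169, held 6 regions over 122245 bp. The 6 were spread among many other FLAG peaks, 49, 38 and 47 in K27M-Tag replicates 1, 2 and 3 and 52, 56 and 56 in the WT-Tag ones. H3K4me3 peaks there numbered 15, 14 and 14 in K27M-Tag against 14, 13 and 10 in WT-Tag cultures, so that no WT-Tag count was above a K27M-Tag one. The run of 5, chr17:10384604-10439694, had 34, 19 and 23 K27M-Tag against 29, 36 and 33 WT-Tag FLAG peaks and no H3K4me3 peak except 3 in WT-Tag replicate 3.

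One run differed from the others. Over the 91392 bp of chr19:3452768-3544159, the K27M-Tag lists had no FLAG peak, and the WT-Tag lists had 4, 5 and 5. The span held 6 merged FLAG regions, of which 4 were WT-Tag-only, and no H3K4me3 peak in any list. Its regions were not strong: their lowest percentiles ran from 7.38 to 54.0. A K27M-Tag FLAG peak lay 728 bp from the first region and 1241 bp from the last, outside the span.

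The remaining runs of 4 lay among FLAG peaks of both genotypes. On chromosome 9, chr9:21076834-21208826 had 4, 2 and 4 K27M-Tag against 7, 15 and 14 WT-Tag FLAG peaks, and none of its 29 merged regions was in all 6 lists. The second on that chromosome, chr9:72557109-72591023, had 16, 5 and 15 against 20, 25 and 30 and no H3K4me3 peak. At chr11:119700779-119864420 there were 40, 27 and 32 K27M-Tag against 21, 32 and 30 WT-Tag FLAG peaks. Here the counts of the genotypes overlapped, whereas on chromosome 9 every WT-Tag count in both runs was above every K27M-Tag count. The members of these runs were chosen by the FLAG lists, so these counts have no test.

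**Figure D4:**
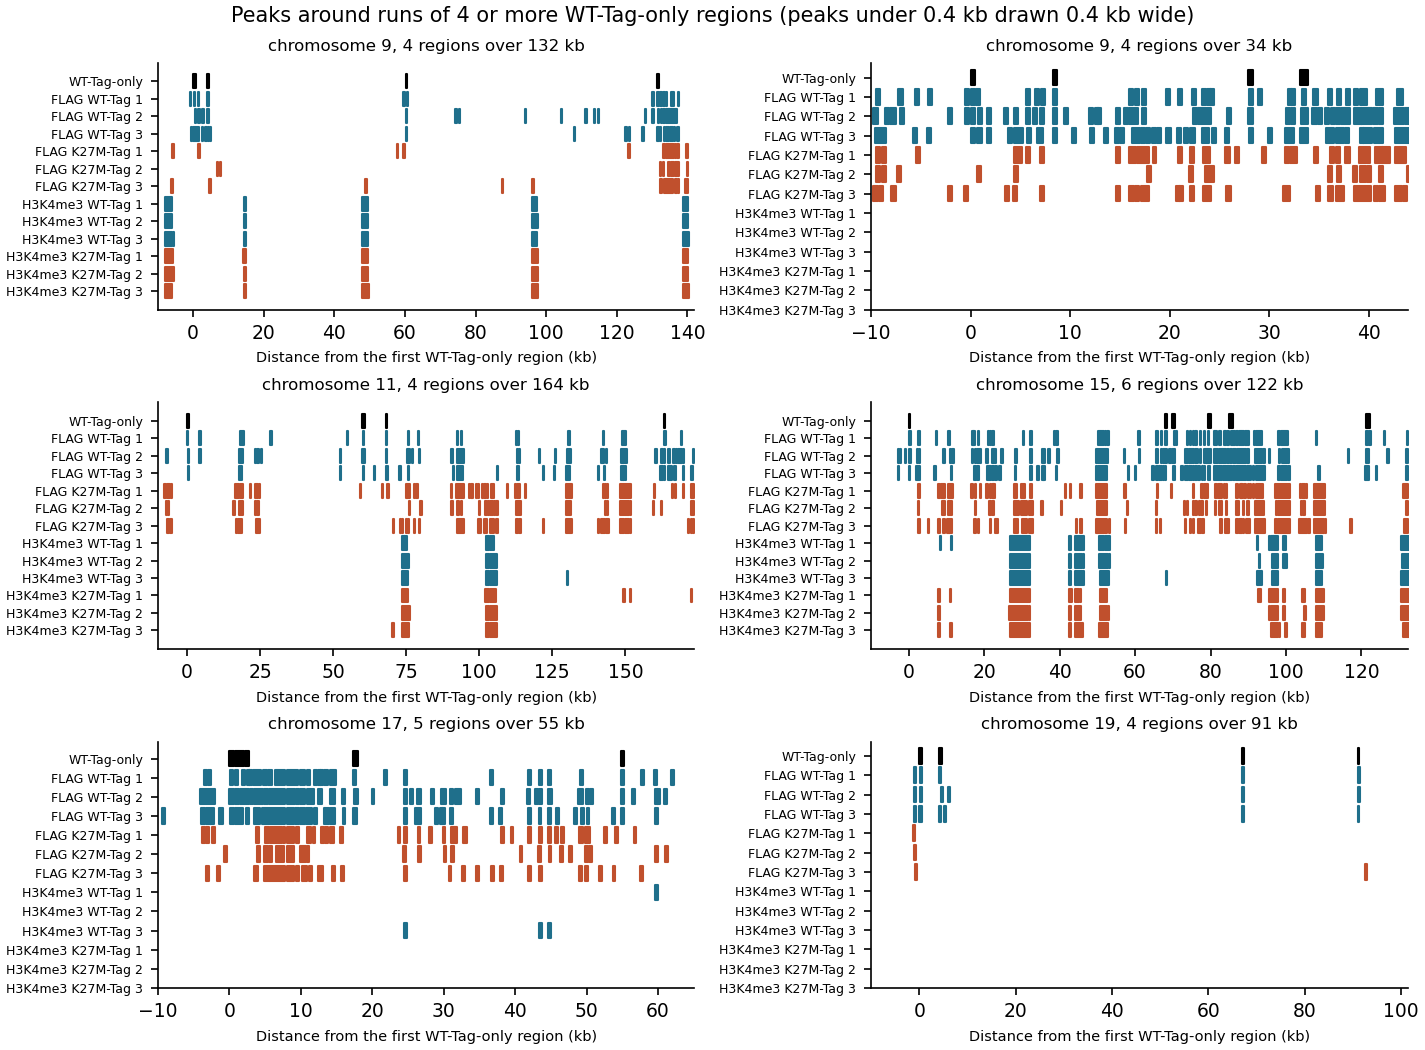
Position of WT-Tag-only regions (black), FLAG peaks and H3K4me3 peaks of the 3 WT-Tag (blue) and 3 K27M-Tag (orange) cultures in the 6 runs of 4 or more regions, against the distance in kb from the first region of the run, with 10 kb on each side. In the run on chromosome 19 the K27M-Tag FLAG rows are empty between the first and the last region, while in the run on chromosome 15 they hold 38 to 49 peaks.

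The H3K4me3 lists were not used to choose the regions, so the distance to H3K4me3 could be compared. WT-Tag-only regions rarely overlapped H3K4me3. An overlapping peak was found at 13, 10 and 11 of the 684 in the H3K4me3 lists of K27M-Tag replicates 1, 2 and 3, and at 13, 12 and 14 in those of the WT-Tag replicates (1.78 ± 0.215% over the 6 lists, SD). Most regions were at a middle distance: 61.7 ± 0.539% were more than 5000 and up to 50000 bp from the nearest H3K4me3 peak, 21.8 ± 0.877% were more than 1000 and up to 5000 bp away, 5.77 ± 0.202% were within 1000 bp without overlap, and 8.97 ± 1.01% were farther than 50000 bp. Counting any of the 6 lists, 21 regions overlapped H3K4me3, 234 (34.2%) were within 5 kb and 41 (5.99%) were over 50 kb away.

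With 3 cultures each, no difference in this distance between the genotypes' H3K4me3 lists was detectable. Within 5 kb of H3K4me3 lay 29.7, 28.4 and 30.8% of the regions by the K27M-Tag lists (29.6 ± 1.24) and 29.1, 29.4 and 28.7% by the WT-Tag lists (29.0 ± 0.368). The groups overlapped, and the difference of 0.585 percentage points had p = 0.6 in a two-sided exact permutation test (Benjamini-Hochberg adjusted p = 0.6 over 7 tests). The median distance was 9.56, 10.4 and 9.58 kb against 10.4, 10.5 and 10.8 kb, a difference of -0.719 kb (exact permutation p = 0.2, adjusted 0.233). With 3 cultures against 3 the smallest p that this test can give is 0.1. The peak names carry a code that splits replicates 1 and 2 from replicate 3 in both genotypes, with no meaning given. Within replicates 1 and 2 the share differed by -0.219 percentage points, and within replicate 3, with 1 culture per genotype, by 2.19, so its sign was not the same in both.

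With overlaps counted as within 5 kb, WT-Tag-only regions were less often near H3K4me3 than regions in all 6 lists and K27M-Tag-only regions. Of regions in all 6 lists, 60.8 ± 4.91% were within 5 kb (SD over the 6 H3K4me3 lists), against 29.3 ± 0.880% of the WT-Tag-only regions. The difference was -31.4 percentage points, from -37.2 to -26.9 over the lists, and lower in 6 of 6 (two-sided exact permutation test flipping the sign in each list, p = 0.03125, the smallest that 6 lists allow, adjusted 0.0438). Of K27M-Tag-only regions 67.1 ± 4.53% were within 5 kb, a difference of -37.8 percentage points (from -41.9 to -33.6, lower in 6 of 6, exact permutation p = 0.03125, adjusted 0.0438). Within replicates 1 and 2 the differences were -31.1 and -37.8, and within replicate 3 they were -32.1 and -37.8. The 2 larger shares differed between the H3K4me3 lists of the genotypes. For regions in all 6 lists they were 64.8 ± 3.05% by K27M-Tag and 56.7 ± 1.41% by WT-Tag lists (SD, n = 3 each). For K27M-Tag-only regions they were 71.1 ± 1.58% and 63.2 ± 1.14%. The K27M-Tag lists also had more H3K4me3 peaks within 50 kb of both sets. Their means were 5.14 ± 0.365 against 4.54 ± 0.111 by WT-Tag lists around regions in all 6 lists. Around K27M-Tag-only regions they were 4.10 ± 0.248 against 3.62 ± 0.0536 (SD, n = 3 each). The part of H3K4me3 list length in these shares was not tested. The 6 lists measure the same regions, so the p-values here cover the spread between lists only. The 7 tests adjusted together include 3 comparisons added after the data were seen, each at the smallest p that 6 lists allow. Without those 3, the adjusted p of both differences would be above 0.05. Regions in all 6 lists were also wider and higher in rank in the WT-Tag FLAG lists, as given above. In the K27M-Tag FLAG lists they covered a median of 1147 ± 132 bp at a median percentile of 86.2 ± 3.23 (SD, n = 3). Distances run from the edges of the merged region, which takes in the peaks of every FLAG list. K27M-Tag-only regions covered a median of 494 ± 80.8 bp in the K27M-Tag lists at a median percentile of 55.8 ± 8.10 (SD, n = 3), a rank within the spread of the WT-Tag-only one. The part of width and rank in these differences was not tested.

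3 further comparisons were added after the data were seen. The first set the WT-Tag-only regions against the 867 regions with 1 K27M-Tag peak. The 867 were close to them in rank and in bases covered by WT-Tag peaks. Of the 867, 36.8 ± 1.202% were within 5 kb of H3K4me3, a difference of -7.49 percentage points. Distances run from the edges of the merged region, which in the 867 also takes in the K27M-Tag peak. The part of that added width was not tested. The second counted overlap alone, which was 42.8 ± 4.93% in the regions in all 6 lists, a difference of -41.0 percentage points. In the 867 regions with 1 K27M-Tag peak overlap was also rare, at 4.69 ± 0.340%. The third left out regions that overlap H3K4me3. Among those that remained, 28.1 ± 0.929% of WT-Tag-only regions and 31.6 ± 2.80% of regions in all 6 lists were within 5 kb, a difference of -3.51 percentage points. By the K27M-Tag lists alone the 2 shares were 28.4 ± 1.21% and 33.9 ± 1.53% (SD, n = 3). By the WT-Tag lists they were closer, at 27.7 ± 0.482% and 29.2 ± 0.625% (SD, n = 3). All 3 had the smallest exact permutation p of 0.03125 (adjusted 0.0438 over the 7 tests, which include these 3). In percentage points, WT-Tag-only regions and regions in all 6 lists lay farther apart in direct overlap with H3K4me3 than in nearness without overlap.

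**Figure D5:**
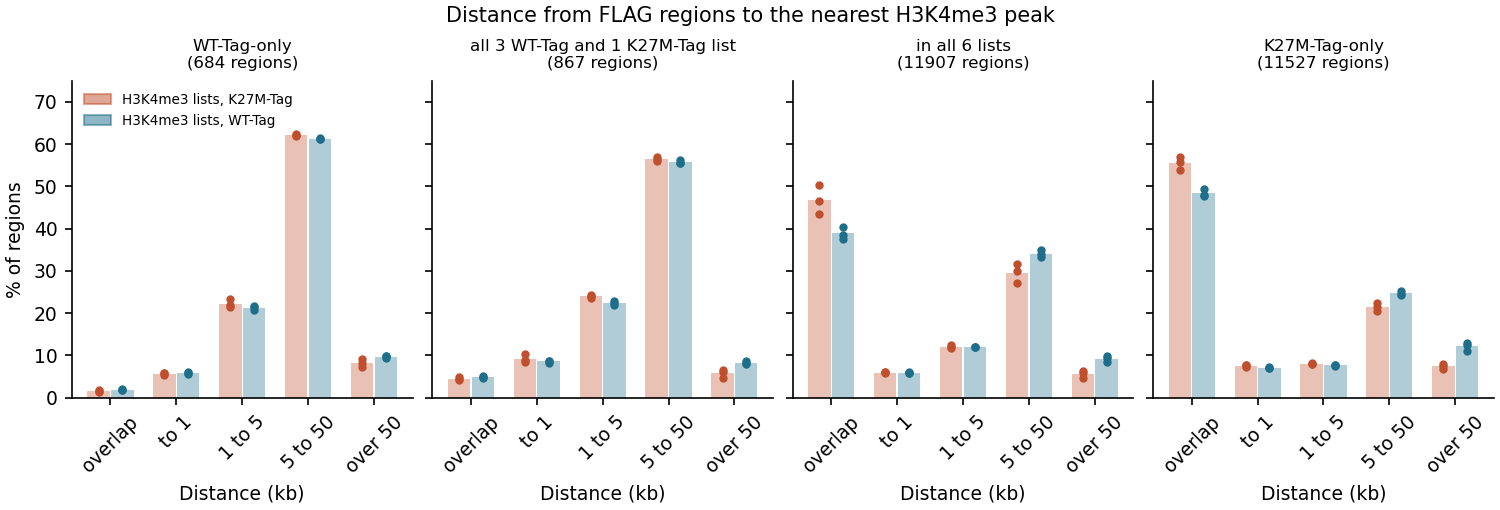
Share of regions (percent) by distance in kb to the nearest H3K4me3 peak for 4 patterns of FLAG regions; points are the 6 H3K4me3 lists and bars are means of the 3 K27M-Tag (orange) and 3 WT-Tag (blue) lists. Overlap is 1.78% in WT-Tag-only regions against 42.8% in regions in all 6 lists, and 61.7% of WT-Tag-only regions lie 5 to 50 kb away.

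Of the 21 regions that overlapped an H3K4me3 peak, 7 did so in all 6 lists, 7 in 1 list and 7 in between. The H3K4me3 peak was strong at some. At chr6:39370560-39371599 its fold was 60.2, 60.7 and 55.2 in the K27M-Tag lists and 38.4, 54.5 and 50.2 in the WT-Tag lists, with FLAG percentiles of 28.4, 30.6 and 33.8. At chr7:107308550-107309212 it was 49.5, 58.0 and 50.2 against 25.1, 37.1 and 35.9, with FLAG percentiles of 69.5, 54.0 and 72.8. The H3K4me3 folds of the K27M-Tag lists were above those of the WT-Tag lists at both of these positions. Such folds are relative to each list's background and are not scaled to the spike-in, so they are given without a test. The others named by the same rule were chr1:177623683-177624073, chr9:122480121-122480958 and chr2:135149423-135149735, with mean H3K4me3 folds of 52.1, 23.5 and 7.25. At chr1:177623683-177624073 the FLAG percentiles were 76.4, 19.7 and 1.43, and at chr2:135149423-135149735 they were 28.4, 69.0 and 96.6. The FLAG rank of these H3K4me3-overlapping regions thus ranged from near the end of a list to near its top.

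H3K4me3 breadth, the bases called as H3K4me3 in a region, was compared between genotypes with limma over all 21864 H3K4me3 regions present in all 6 lists. With Benjamini-Hochberg adjustment over all of them, 8.06% passed 0.05, 7.51% as wider and 0.549% as narrower in K27M-Tag cultures. Of the 1797 tested within 50 kb of a WT-Tag-only region, 129 were called (7.18%), 114 wider (6.34%) and 15 narrower (0.835%). The median log2 difference was 0.11 near the regions and 0.14 overall. Within 5 kb, 13 of 210 were called (6.19%), 11 wider and 2 narrower. The shares near the regions were close to the background, so breadth near WT-Tag-only regions changed about as often as elsewhere. After centring each list on its median, the split near the regions was 36 wider and 26 narrower, beside 429 and 246 overall. The number depended on the libraries, and with 1 culture left out the WT-Tag-only regions were also found anew. Without K27M-Tag replicate 1, 2 or 3, the calls near the regions were 6 of 2544 (0.236%), 61 of 2103 (2.90%) and 30 of 2818 (1.06%), beside 0.401, 2.98 and 0.917% of all H3K4me3 regions. Without WT-Tag replicate 1, 2 or 3, they were 244 of 4915 (4.96%), 291 of 3118 (9.33%) and 106 of 3114 (3.404%), beside 5.57, 10.9 and 3.68%. The share near the regions thus moved with the share over all H3K4me3 regions.

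The 2 narrower H3K4me3 regions within 5 kb were both on chromosome 7, and they are named after their values were seen. The region chr7:20281236-20285079 lay 160 bp from the WT-Tag-only region chr7:20279278-20281076, one of the widest. Its breadth was 1610, 1591 and 2144 bp in K27M-Tag and 3123, 3357 and 3844 bp in WT-Tag cultures, so every K27M-Tag culture was below every WT-Tag one. The log2 difference was -0.96 (SE 0.13, limma adjusted p = 0.0133), it ranged from -1.10 to -0.88 over 8 alternatives, and it passed in 7 of them with adjusted p from 0.00976 to 0.0677. The extra WT-Tag H3K4me3 and the WT-Tag-only FLAG region were thus neighbours there: the nearest H3K4me3 peak was 727, 576 and 160 bp away in WT-Tag lists and 2265, 2253 and 1810 bp away in K27M-Tag lists. The region chr7:86687880-86690281, 986 bp from chr7:86691267-86691648, had 1611, 988 and 1168 bp against 1888, 2348 and 2397 bp (log2 difference -0.84, SE 0.18, limma adjusted p = 0.0402). It passed in only 1 of 8 alternatives, with adjusted p from 0.0299 to 0.124.

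Among wider H3K4me3 regions, chr9:112020570-112021453 was nearest to a WT-Tag-only region, at 240 bp, and the regions in this paragraph too were picked by their values. It covered 800, 603 and 849 bp in K27M-Tag against 300, 303 and 269 bp in WT-Tag cultures (log2 difference 1.36, SE 0.18, limma adjusted p = 0.0129). The FLAG call there was therefore missing in cultures whose H3K4me3 call was the wider one, the reverse of the arrangement at chr7:20281236-20285079. Farther out, the largest increase within 50 kb was at chr2:28393123-28395607, 38442 bp from a WT-Tag-only region, with 2269, 1334 and 1912 bp against 461, 379 and 218 bp (log2 difference 2.42, SE 0.31, adjusted p = 0.0123). The largest decrease was at chr7:86658710-86661327, 29940 bp away, with 491, 513 and 1004 bp against 1494, 2462 and 2393 bp (log2 difference -1.71, SE 0.31, adjusted p = 0.0277). It passed in 5 of 8 alternatives, and the increase passed in 6 of 8.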

How the data were processed

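Each of the 12 libraries had its own peak list on mm9, with 10 columns in narrowPeak order. The submitters' processing notes name BWA 0.7.17-r1188, MACS2 2.2.7.1, bedtools 2.29.2, mm9 and dm6, with no role given. Per the labels' protocols, Drosophila chromatin was added before the H3K4me3 ChIP, several ChIPs were pooled as needed, and inputs were composites, not analysed here. The deposited score is 10 times the −log10 q within 1 unit. The deposited fold enrichment is a ratio, and the deposited −log10 p and −log10 q are the authors' values. The lowest −log10 q was 2.00 to 2.05 in the FLAG lists. No spike-in factor was applied.

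Overlaps, ranks and distances were computed in Python 3.11.15 (scipy 1.17.1) and breadth in limma 3.58.1 (moderated fit with trend on log2 covered bases, no pseudocount). A whole summit pileup k and a background b with fold (k + 1) over (b + 1) and a Poisson tail p matched every autosomal FLAG peak within 0.0001. The steps were tested on simulated lists. The members, the sets of regions compared and the naming rule were chosen with earlier results of these data known. Named were the 12 highest by lowest percentile, the 5 widest, the 5 with most H3K4me3 lists, runs of at least 4 and the 3 with the smallest lowest −log10 q. No mm9 gene annotation or sequence was used here, so regions carry no gene names, and the cell type was not checked against marker genes. Peak widths and calls depend on the depth and control of each library. Read totals are not given in the sources used here.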

Additional observations from a re-analysis of the deposited data

How the results depend on the processing

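The number of WT-Tag-only regions was 1693 with equal list sizes and ran from 786 to 2497 when 1 culture was left out, which removes 1 condition of the rule. The share within 100 kb of another region was 52.8% with equal list sizes, 19.6% with peaks joined across 1000 bp, 25.5% without regions of high local background (an alternative chosen after seeing the data) and 33.0 to 59.3% with 1 culture left out. With equal list sizes the median covered bases were 375 and the median percentile was 62.2, and with 1 culture left out they ran from 264.5 to 322 bp and from 41.7 to 49.2. The share within 5 kb of H3K4me3 by K27M-Tag minus WT-Tag lists changed sign with joined peaks (-0.0649 percentage points), equal H3K4me3 lists (-0.780) and a distance of 1 kb (-0.390). The median distance changed sign with equal H3K4me3 lists (0.0465 kb). Against regions in all 6 lists the share differed by -32.4 to -26.6 percentage points with 1 culture left out, and against K27M-Tag-only regions by -38.6 to -31.9. 5 lists cannot give a p under 0.0625. At 50 kb the difference from K27M-Tag-only regions was 0.833 (exact permutation p = 0.344). The cause of these changes was not tested. H3K4me3 breadth calls near the regions were 129 of 1797 tested, 13 of 210 within 5 kb, 62 of 1797 after centring (3.45%, beside 3.09% of all) and 6 to 291 with 1 culture left out, where the share of all H3K4me3 regions called ran from 0.401 to 10.9%.

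Same-numbered cultures of the genotypes had correlations of deviations in H3K4me3 breadth of 0.0295, 0.0337 and -0.00957, so the numbers do not pair them. With the replicate number as a block, 44 breadth calls were made near the regions (2.45%) and 468 over all H3K4me3 regions (2.14%), and the shares and distances kept their values (0.585 and -0.719) with exact permutation p = 0.75 and 0.25, where 3 pairs cannot give less than 0.25.

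Depth limits these results: a region missing from a list fell short of that list's limit, which does not show that the tagged histone is absent.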

Other observations

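The position chr17:55035298-55036125 combined the widest distance to any K27M-Tag FLAG peak (981059 bp) with H3K4me3 calls in WT-Tag replicates 2 and 3 only. The nearest H3K4me3 peak in K27M-Tag replicates 1, 2 and 3 was 548476, 548561 and 548608 bp away, and in WT-Tag replicate 1 it was 548438 bp away. At chr2:135149423-135149735 the pattern was different: the nearest K27M-Tag FLAG peak was 56834 bp away, while H3K4me3 overlapped the region in all 6 lists.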
